A study of Caenorhabditis elegans with 2 samples.

Results

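The genes described here are 10 genes of the nematode Caenorhabditis elegans that encode RNA-binding proteins of the germ line, the oocyte and the early embryo: mex-1, mex-3, mex-5, mex-6, oma-1, oma-2, pos-1, gld-1, spn-4 and pie-1. They were picked by symbol, with earlier results of these data known. All 10 were found among the 19973 protein-coding genes of the nuclear chromosomes. PBRM-1 is polybromo, a subunit of the nucleosome remodelling complex PBAF, which belongs to the SWI/SNF family. Its binding was mapped by ChIP-seq (chromatin immunoprecipitation followed by sequencing) in intact young adults collected at 64.5 h. All animals were of the strain RW12226, in which genome editing had added TY1, EGFP and 3xFLAG tags to pbrm-1 at its own place on chromosome I (allele st12226). Chromatin was sheared by sonication and pulled down with an anti-GFP antibody, from cultures synchronised by bleaching and L1 starvation. The 2 biological replicates form 1 group, so there is no contrast between conditions and no test, and a control experiment named in the labels was not used here. Germ line and body tissues, with any embryos the animals held, were pooled in each sample. Strong binding in a few cells and weak binding in many therefore cannot be told apart.

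Maternal RNA-binding proteins matter in the worm because the oocyte and the first embryonic cells rely on stored messenger RNAs whose translation and decay are set by proteins bound to their 3' untranslated regions. GLD-1 and the OMA proteins hold messages silent in the germ line and the growing oocyte. MEX-5, MEX-6, MEX-1, POS-1, MEX-3, SPN-4 and PIE-1 then act in the zygote and early blastomeres, where many of them are sorted to 1 end of the cell and separate the fates of soma and germ line. The genes themselves are transcribed in the mother's germ line. Of the 10 proteins, 7 carry a pair of CCCH zinc fingers (MEX-1, MEX-5, MEX-6, OMA-1, OMA-2, POS-1 and PIE-1). GLD-1 and MEX-3 bind RNA through KH domains, and SPN-4 through an RNA recognition motif.

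The sequences at the centre of the promoter peaks are shown first, since they are the DNA under the centre of the signal at these genes. Each is 101 bases of the ce11 assembly centred on a peak summit, taken from the RefSeq copy and read 5' to 3' on the strand of the gene. Capitals mark matches, on either strand, to 1 of 10 short motifs whose shares are given further on, and neighbouring matches may run together. The mex-1 summits are at chrII:11967671-11967771 (plus strand, far site) and chrII:11968423-11968523 (plus strand, near site). The others shown lie at chrV:8028953-8029053 (oma-2, plus strand), chrV:8029164-8029264 (oma-2, plus strand, a weaker summit), chrV:8413769-8413869 (pos-1, plus strand) and chrV:6785245-6785345 (spn-4, minus strand). For mex-5, mex-6 and oma-1 there was no called series summit, and the one shown is from a single replicate, at chrIV:13353366-13353466, chrII:9523666-9523766 and chrIV:8888669-8888769, all on the plus strand. The remaining called series summit, that of gld-1, is described by its values only.
mex-1 far site: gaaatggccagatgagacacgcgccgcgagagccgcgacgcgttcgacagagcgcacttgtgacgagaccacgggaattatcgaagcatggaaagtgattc
mex-1 near site: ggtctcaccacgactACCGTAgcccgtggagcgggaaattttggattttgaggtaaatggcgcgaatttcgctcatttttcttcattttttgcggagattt
oma-2: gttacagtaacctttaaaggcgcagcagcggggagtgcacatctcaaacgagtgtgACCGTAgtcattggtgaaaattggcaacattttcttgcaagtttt
oma-2 weaker summit: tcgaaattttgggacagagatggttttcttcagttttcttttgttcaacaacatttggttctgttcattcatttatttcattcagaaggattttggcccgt
pos-1: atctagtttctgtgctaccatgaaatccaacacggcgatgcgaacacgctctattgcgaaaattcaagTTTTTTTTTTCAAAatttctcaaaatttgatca
spn-4: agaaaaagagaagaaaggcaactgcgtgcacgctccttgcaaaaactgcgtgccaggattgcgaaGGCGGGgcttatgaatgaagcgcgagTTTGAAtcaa
mex-5: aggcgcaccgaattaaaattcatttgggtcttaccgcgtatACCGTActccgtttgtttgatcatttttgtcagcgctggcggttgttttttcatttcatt
mex-6: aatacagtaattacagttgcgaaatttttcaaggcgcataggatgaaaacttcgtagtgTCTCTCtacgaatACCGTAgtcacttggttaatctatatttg
oma-1: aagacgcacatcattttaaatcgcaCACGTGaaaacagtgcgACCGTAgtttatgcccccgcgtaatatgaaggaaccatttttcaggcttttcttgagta

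PBRM-1 peaks stood at the promoters of 5 of the 10 genes, mex-1, pos-1, gld-1, spn-4 and oma-2, and mex-1 carried the strongest of them. A gene counted as bound when a peak summit lay between 1000 bp before and 200 bp after the start of any of its annotated transcripts. These 5 of 10 stand beside 9.87% of all protein-coding genes, bound by the same rule in the series list, the 3243 peaks that passed the authors' reproducibility threshold in the list made from both replicates. The conservative list of 2917 peaks gave the same 5 genes, beside 8.99% of all genes. It is not simply a part of the series list, as it holds some peaks that the series list lacks. The members were chosen with earlier results of these data known, so these shares are descriptions. The strongest promoter peak of the bound members had a median signal of 99.3 (81.2 to 243), and that of all 1971 bound genes had a median of 107. Signal is the authors' own value for each peak and is compared only within 1 list. Read depth is unknown from peak lists.

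The replicates differed in how many of these genes passed. In replicate 2, with 2173 peaks in its own list, 7 members were bound (mex-1, mex-5, mex-6, oma-2, pos-1, gld-1 and spn-4), beside 7.63% of all genes. In replicate 1, with 1370 peaks, 3 were bound (mex-1, oma-1 and gld-1), beside 4.63% of all genes. Only mex-1 and gld-1 were bound in the lists of both replicates, beside 4.14% of all genes. mex-5 and mex-6 passed in replicate 2 alone, and oma-1 in replicate 1 alone. The candidate lists, which also hold peaks that did not pass the threshold, fill in the rest. They are not complete: the series candidate list used here holds 2898 of the 2917 conservative peaks. It also lacks the oma-1 promoter peak that passed in replicate 1. A gene without a candidate is therefore one without a listed peak. A candidate summit lay in the promoter window of 9 members in the series candidate list (66.0% of all genes), of 10 in replicate 1 (52.9%) and of 9 in replicate 2 (49.4%), oma-1 being the exception in the first and the last of these. Having a candidate was thus common among all genes. The candidate lists hold 89851 peaks for the series, 54625 for replicate 1 and 48976 for replicate 2, so ranks within them are given side by side and show no change between lists.

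**Figure D1:**
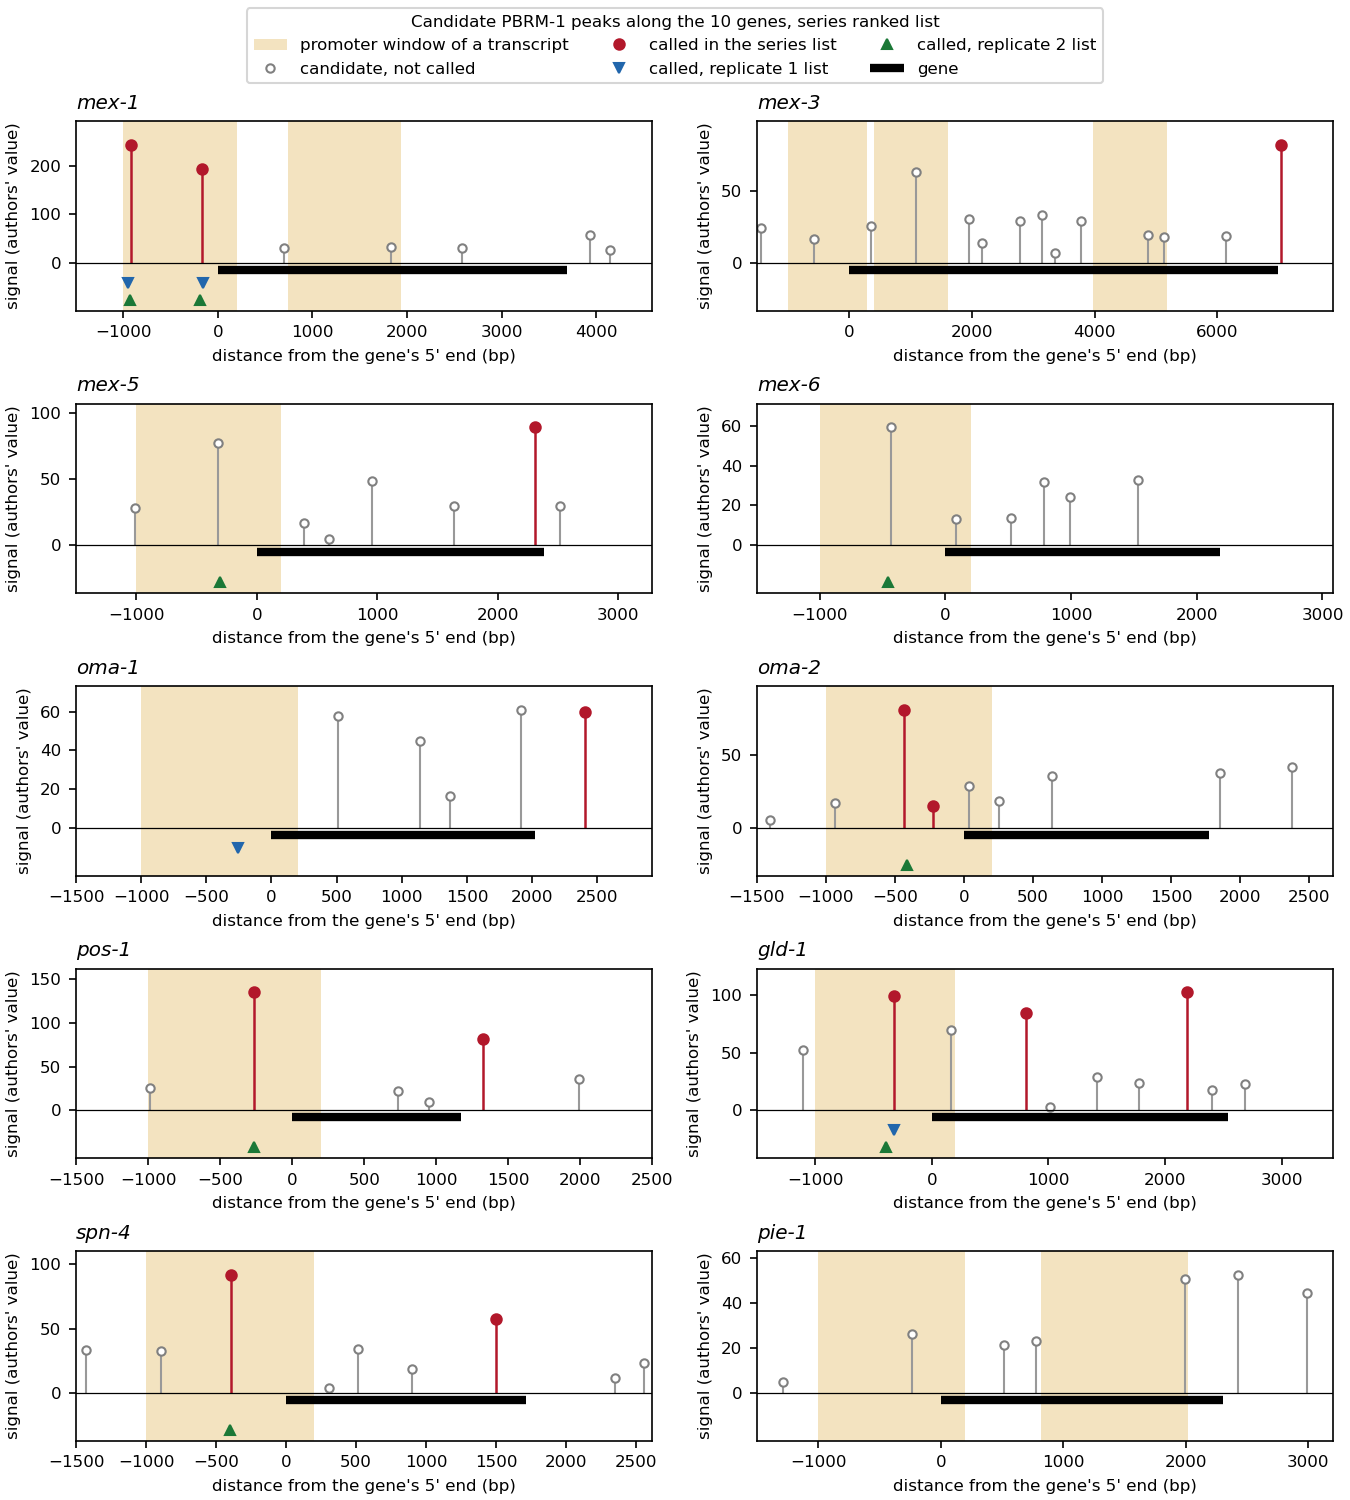
Candidate PBRM-1 peaks along the 10 genes, with distance from the gene's 5' end (bp) on the horizontal axis and the authors' signal in the series candidate list on the vertical axis, whose scale differs between panels. Filled red points passed the threshold of the series list, open points did not, triangles mark promoter summits that passed in 1 replicate's own list, shading marks the promoter window of each annotated transcript and the black bar is the gene; mex-1 has 2 red points in its promoter window, and gld-1 has 3 along its promoter and body.

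mex-1 (chrII:11968637-11972330, plus strand) encodes a zinc finger protein needed for the early blastomeres to take different fates, and its name stands for the excess muscle of mutant embryos. Its upstream region held a far peak, chrII:11967646-11967785, with its summit 916 bp before the 5' end and a signal of 243, which was rank 257 of 3243. It also held a near peak, chrII:11968313-11968632, with its summit 164 bp before the 5' end, a signal of 193 and rank 412. Both sites recurred in each replicate's own list. The far site had a signal of 113 in replicate 1 and 130 in replicate 2, and the near site had 85.8 in replicate 1 and 104 in replicate 2. The far site was thus the stronger in both. By the strongest candidate in its promoter window, mex-1 ranked 226 among all protein-coding genes, in the top 1.13%, with 0.866% in replicate 1 and 1.44% in replicate 2. The peaks cannot be given to mex-1 alone. The divergent gene W03C9.5 starts 1092 bp away and its window holds both summits. The far summit lies closer to the start of W03C9.5 than to that of mex-1. It also lies in the window of rab-7, which encodes a small GTPase of late endosomes. The gene ranks given here for mex-1 rest on this far summit. When a summit counted for its closest gene alone, mex-1 kept 1 promoter summit in place of 2. The near peak, with 193, still exceeded the strongest promoter peak of each other bound member.

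pos-1 (chrV:8414086-8415254, plus strand) encodes a zinc finger protein that specifies posterior and germ line fates in the embryo. Its peak, chrV:8413659-8413978, had its summit 267 bp upstream, a signal of 135 and rank 832. The site had a signal of 82.7 in replicate 2, where it passed the threshold, and of 49.1 in replicate 1, where it did not. By gene it was in the top 3.42% in the series, the top 4.55% in replicate 1 and the top 3.25% in replicate 2. A candidate was thus present in both replicates, and the call differed. The summit also lies in the window of the divergent gene vha-18, named as a vacuolar ATPase subunit gene, across a gap of 603 bp.

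oma-1 and oma-2 encode a redundant pair of zinc finger proteins needed for oocyte maturation, and the pair differed in where PBRM-1 was called. oma-2 (chrV:8029439-8031214, plus strand) had a peak at chrV:8028843-8029162, 436 bp upstream, with a signal of 81.2 and rank 2025. The same site had 60.9 in replicate 2 and passed there, and 29.7 in replicate 1, where it did not pass. A second called peak of oma-2, 225 bp upstream at chrV:8029054-8029373, overlapped the first and had a signal of 14.8, a q value of 0.903 and rank 3135. With it, oma-2 and mex-1 were the members with more than 1 promoter summit, 2 of 10 beside 1.16% of all genes. Counting a summit for its closest gene alone left oma-2 with 2 and mex-1 with 1. Keeping only peaks with q at most 0.05 left oma-2 with 1 and mex-1 with 2. oma-1 (chrIV:8888976-8890999, plus strand) had no listed candidate in its promoter window in the series or in replicate 2. In replicate 1 it had a called peak 257 bp upstream, chrIV:8888577-8888860, with a signal of 46.8, a q value of 0.0169 and a score of 837, just above the threshold of 830. That score corresponds to an irreproducible discovery rate of 0.01. The nearest candidate of oma-1 in the series lay 511 bp inside the gene, with a signal of 57.9, and was not called. No candidate was reported at the oma-1 promoter in replicate 2, so this peak has no second measurement.

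mex-5 and mex-6 encode a second such pair, the proteins that mark the anterior cytoplasm of the zygote and keep germ line factors to the posterior. Neither was bound in the series list, and both were bound in replicate 2. mex-5 (chrIV:13353723-13356104, plus strand) had a promoter peak 307 bp upstream in replicate 2, chrIV:13353268-13353563, with a signal of 60.4 and a score of 986. Its candidate in replicate 1 had a signal of 17.4 and ranked mex-5 in the top 32.8% of genes there, and its rank in replicate 2 was in the top 5.35%. mex-6 (chrII:9524174-9526359, plus strand) had a peak 458 bp upstream in replicate 2, chrII:9523568-9523863, with a signal of 43.0 and a score of 877. Its candidate in replicate 1 had a signal of 17.0 and placed it in the top 34.2% there, and its rank in replicate 2 was in the top 8.95%. Both genes thus had a called promoter peak in 1 replicate and a low candidate in the other. The mex-5 summit is shared with the divergent gene rec-8, which encodes the meiotic cohesin subunit REC-8, across a gap of 529 bp. It lies closer to the start of rec-8 than to that of mex-5. The mex-6 summit is in no other protein-coding gene's window.

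pie-1 (chrIII:12426893-12429195, plus strand) encodes the zinc finger protein that blocks messenger RNA transcription in the germ line blastomeres. It had no called promoter summit in any of the 4 thresholded lists. Its strongest candidate in the series had a signal of 50.5 and lay 177 bp after the start of an internal transcript, 1997 bp into the gene. The gene stood in the top 15.8% in the series, the top 42.9% in replicate 1 and the top 20.2% in replicate 2. At its outer 5' end the candidate signal was 26.1. pie-1 was the member with the lowest promoter signal of the 9 that had a series candidate.

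gld-1 (chrI:7695681-7698222, plus strand) encodes a KH domain protein that represses many messages during meiotic prophase and is required for oogenesis. Its promoter peak, chrI:7695194-7695513, had its summit 327 bp upstream, a signal of 99.3 and rank 1452. The signal was 66.3 in replicate 1 and 44.1 in replicate 2, and both passed. By gene this was the top 5.48% in the series, the top 2.55% in replicate 1 and the top 8.62% in replicate 2. No other protein-coding gene's window held the summit. mex-3 (chrI:127285-134270, plus strand), whose KH protein represses the posterior gene pal-1 in anterior cells, had no called promoter summit. Its strongest candidate had a signal of 63.1 and lay 327 bp before an internal transcript start, 1085 bp into the gene. Its candidates placed it in the top 10.7% in the series, the top 8.68% in replicate 1 and the top 23.7% in replicate 2.

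spn-4 (chrV:6783187-6784903, minus strand) encodes an RNA recognition motif protein needed for spindle orientation and cell fate in the embryo. Its promoter peak, chrV:6785135-6785454, had its summit 392 bp upstream, a signal of 91.9 and rank 1647. The signal was 49.1 in replicate 2, with a score of 868 that passed, and 40.3 in replicate 1, which did not pass. By gene it was in the top 6.1% in the series, the top 6.19% in replicate 1 and the top 7.44% in replicate 2. The summit is shared with the divergent gene spe-39 across 547 bp, and it lies closer to the start of spe-39 than to that of spn-4. When a summit counted for its closest gene alone, spn-4 kept no promoter summit.

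**Figure D2:**
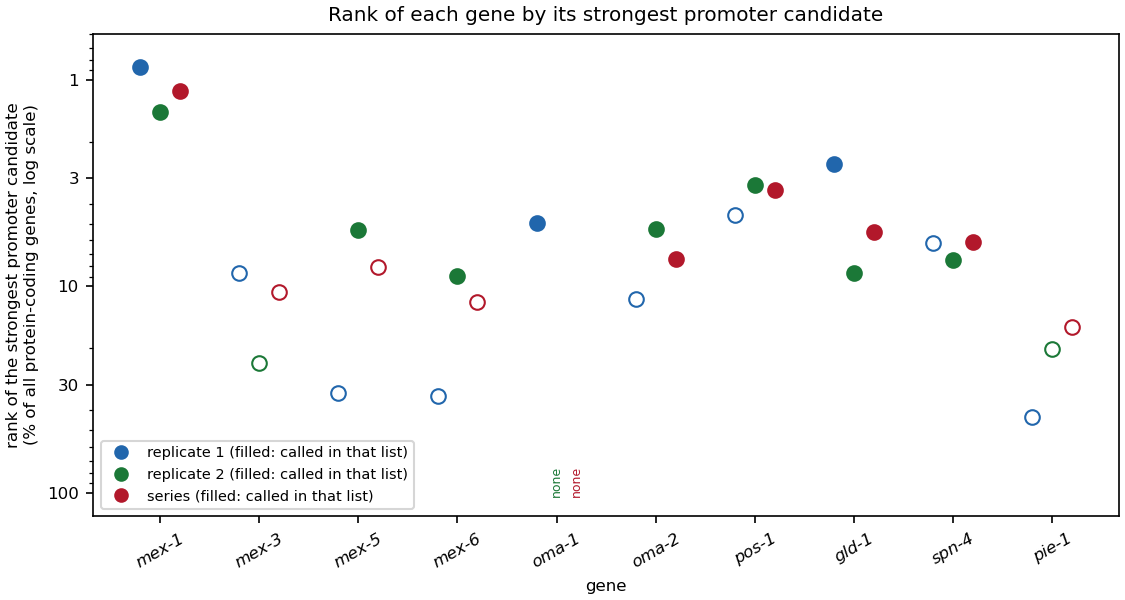
Rank of each of the 10 genes among all protein-coding genes by its strongest promoter candidate, as a percent on a log scale with the strongest at the top, in replicate 1 (blue), replicate 2 (green) and the series (red); filled points passed the threshold of that list. mex-1 lies near 1% in all 3, while mex-5 lies at 32.8% in replicate 1 and 5.35% in replicate 2, and mex-6 at 34.2% in replicate 1 and 8.95% in replicate 2.

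The members that missed the threshold were not all weak in series signal. The mex-5 candidate had a series signal of 77.0, and 94.2% of the 2347 candidates with a signal that high or higher were called. The mex-5 candidate had a score of 101 and was not, and its signal was 17.4 in replicate 1 and 60.4 in replicate 2. Of the candidates with a signal at least as high as that of mex-3 (signal 63.1, score 612), 2853 of 3501 (81.5%) were called. At or above the mex-6 candidate (signal 59.2, score 739) it was 2955 of 4060 (72.8%). For pie-1 (signal 50.5, score 529) it was 3050 of 6355 (48.0%). Each of these shares includes all stronger candidates, so it is not the share called at signals near that of the member. Of the called peaks, 1031 had a lower signal than the mex-5 candidate. The threshold applies to the score, and at these genes signal and score gave different orders.

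The 7 member summits of the series list lay at a median of 327 bp upstream of the 5' end (164 to 916 bp), against 262 bp upstream for the 2221 pairs of a gene and a promoter summit in all. None lay downstream of a 5' end. Of the 7, 4 (57.1%) lay in the windows of 2 or more protein-coding genes, against 497 of 1694 promoter summits (29.3%). The 4 shared summits are those of mex-1, pos-1 and spn-4, which each have a divergent neighbour within 1092 bp. oma-2 and gld-1 follow a neighbour on the same strand, F43H9.4 at 649 bp and T23G11.4 at 448 bp, and their summits were unshared.

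PBRM-1 was also called at the 3' ends of these genes, a position examined after the data had been seen. A summit lay within 500 bp of the 3' end of 6 members, mex-3, mex-5, oma-1, pos-1, gld-1 and spn-4, beside 5.72% of all genes. The conservative list held 4 of them (mex-3, mex-5, pos-1 and gld-1), beside 5.17%. Replicate 1 held 1 (pos-1), beside 2.09%, and replicate 2 held 3 (mex-5, pos-1 and gld-1), beside 3.68%. Promoter and 3' end were both called at pos-1, gld-1 and spn-4, the promoter alone at mex-1 and oma-2, the 3' end alone at mex-3, mex-5 and oma-1, and neither at mex-6 and pie-1. Over all protein-coding genes, both were called at 1.93%, the promoter alone at 7.94%, the 3' end alone at 3.79% and neither at 86.3%. Counting the promoter window, the gene and the 3' end window together, 8 members held a summit, beside 15.4% of all genes.

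None of these 3' summits can be given to the member alone. The summits of mex-3, oma-1 and gld-1 also lie in the promoter windows of the following genes on the same strand, F53G12.4, spr-2 and T23G11.10. At mex-3 the summit lay 48 bp past the end (signal 81.9) and at gld-1 353 bp before it (signal 103). At oma-1 it lay 381 bp past the end, with a signal of 59.97 and a q value of 0.18. The other 3, at mex-5, pos-1 and spn-4, lie in no promoter window, a state found at the 3' end of 3.11% of all genes. At mex-5 the summit lay 73 bp before the end, in the 3' untranslated region, with a signal of 88.8, which was above the 77.0 of its uncalled promoter candidate. At pos-1 it lay 154 bp past the end with a signal of 81.9, against 135 at the pos-1 promoter. At spn-4 it lay 219 bp before the end with a signal of 57.9 and a q value of 0.218, against 91.9 at the promoter. All 3 of these genes face a convergent neighbour, W02A2.8 at 8 bp, lmd-3 at 393 bp and the overlapping ZC404.15. Each of the 3 summits also lies within 500 bp of the 3' end of that neighbour.

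In the replicates' own lists these sites passed unevenly. The pos-1 3' site passed in both, with a signal of 50.2 in replicate 1 and 48.0 in replicate 2. The mex-5 site (39.4 in replicate 1 and 46.6 in replicate 2) and the gld-1 site (38.3 in replicate 1 and 57.0 in replicate 2) passed in replicate 2 alone. The sites of mex-3 (43.4 and 39.8 in replicates 1 and 2), oma-1 (25.9 and 33.5) and spn-4 (37.7 and 22.2) passed in neither, although a candidate was present in each. gld-1 further had a called peak in a coding exon 810 bp into the gene, with a signal of 84.7, which was 27.3 in replicate 1 and 52.5 in replicate 2 and passed in replicate 2. gld-1 was thus the member with called peaks at its promoter, in its body and at its 3' end.

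**Figure D3:**
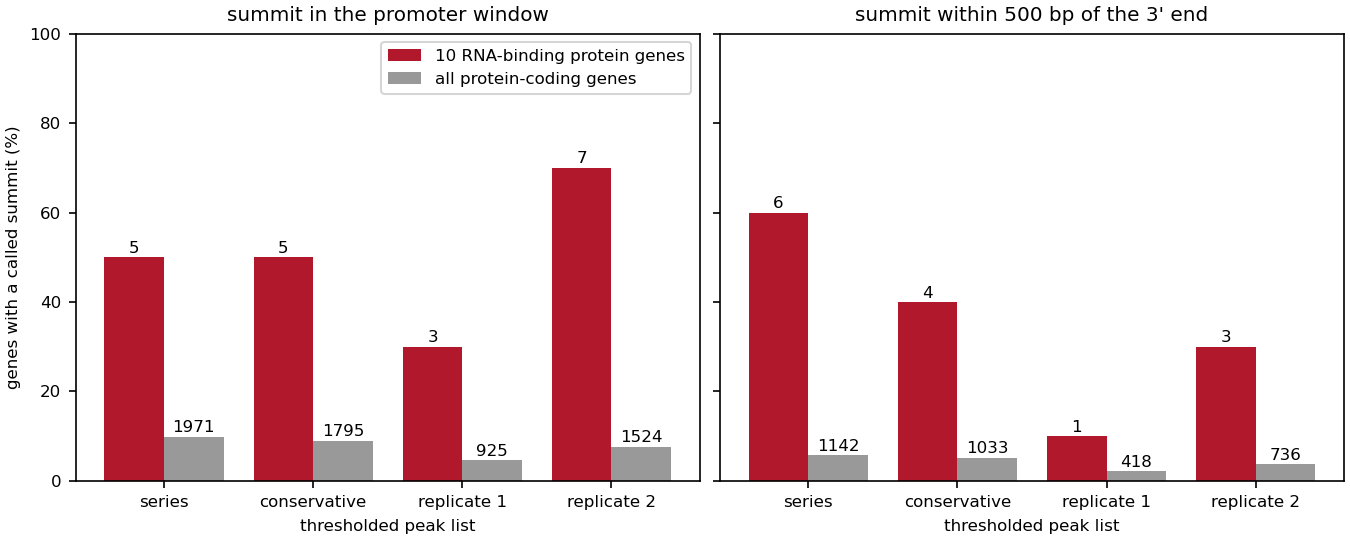
Share of the 10 RNA-binding protein genes (red) and of all 19973 protein-coding genes (grey) with a called summit in the promoter window (left) or within 500 bp of the 3' end (right), in percent, for the series, conservative, replicate 1 and replicate 2 lists; the numbers above the bars count genes. The promoter count of the 10 genes was 3 in replicate 1 and 7 in replicate 2, and the 3' end count was 1 in replicate 1 and 3 in replicate 2.

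The sequences around the promoter summits differed in composition. Within 100 bp of the summit, GC content had a median of 37.3% over the 7 member windows, against 42.8% over the 1694 promoter summits and 33.8% over all gene promoters at the same length (centred 200 bp upstream). The far mex-1 site had the highest value, 51.7%, followed by the gld-1 site with 46.8%. The pos-1 (34.8%), oma-2 (34.3% and 32.3%) and spn-4 (37.3%) windows were lower. Nearer to the summit the difference shrank, to a median of 45.5% in the 7 windows reaching 50 bp to each side, against 47.5% over all promoter summits.

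Motifs were looked for on both strands in the same windows, and a window counted once however many matches, overlapping ones included, it held. GAGAGA, held by 29.3% of promoter summits and 14.2% of gene promoters, was in none of the 7 member windows. TATAAA (12.2% of promoter summits and 25.0% of gene promoters), GATAAG (6.49% and 9.95%) and CTCCGCC (6.26% and 2.77%) were in none either. CTGCGTC (11.8% and 3.07%) was in the near mex-1 window, CACGTG (5.79% and 3.33%) in the far mex-1 window, and CCCGCC (11.4% and 4.22%) in the spn-4 window. TTTGAA was in 4 of the 7 (37.0% of promoter summits and 50.3% of gene promoters). A run of T, TTTTTTTT, was in 3, oma-2, pos-1 and spn-4 (12.4% and 24.2%). None of these motifs was in all 7 windows.

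ACCGTA was searched for only after the member sequences had been read. It was in 3 of the 7 series windows, the near mex-1 site, oma-2 and gld-1, and in the replicate summit windows of mex-5, mex-6 and oma-1. It was in 12.6% of promoter summit windows and 6.2% of gene promoters. Counted from the summit along the gene strand, the match began at position 6 in oma-2, -9 in mex-5, 22 in mex-6, -8 in oma-1 and -35 in mex-1. The near mex-1 window held a second match on the other strand, and the gld-1 match, 51 bp from the summit, was also on the other strand. In the shorter windows reaching 50 bp to each side, 2 of the 7 held it, the near mex-1 site and oma-2, beside 9.09% of promoter summits and 3.19% of gene promoters. Since the motif was chosen from these sequences, its presence in 6 of the genes is a description and carries no test.

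The duplicated genes were much alike in protein and less so at their promoter summits. The proteins MEX-5 and MEX-6 were 70.4% identical and OMA-1 and OMA-2 62.7%, against 11.8% to 21.6% for the other 43 pairs. The windows reaching 100 bp to each side of their promoter summits were 46.1% identical for mex-5 and mex-6 and 53.2% for oma-1 and oma-2, against 41.0% to 49.3% for the 26 other pairs of members with a called summit. The oma pair lay above that range and the mex pair within it.

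Beside the 5 of 10 members, genes related to them by pathway or by protein domain were bound to differing extents. Over 7 lists of such genes, 26 of 104 (25.0%) were bound in the series list, 12 in replicate 1 and 19 in replicate 2. The strongest peaks of the 26 had a median signal of 114. The share of all genes was the 9.87% given above. In replicate 1 alone the counts were lower in each list, for example 5 of 22 for messenger ribonucleoproteins, 3 of 20 for polarity and 2 of 12 for PUF and Nanos genes, beside the 4.63% of all genes. The lists were put together with earlier results of these data known, so the shares are descriptions.

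Among 22 genes of messenger ribonucleoproteins and translational repression, 8 were bound (36.4%), with the highest signals at ifet-1, which encodes a binding partner of the cap-binding protein eIF4E (signal 531), sqd-1, related to the fly hnRNP gene squid (327), and atx-2, the ataxin-2 gene (305). The ifet-1 summit is shared with the ribosomal protein gene rps-1, F56F3.10 and F56F3.11, and that of atx-2 with ecps-1. In the conservative list the count for these 22 genes was lower, 6 (27.3%), beside 8.99% of all genes. Of 20 genes for polarity proteins, kinases and turnover factors that act on the members, 7 were bound (35.0%), led by par-2 (signal 237, shared with rab-18 and kbp-4), par-3 (130) and par-5 (120, shared with M117.3 and 2 further genes). PAR-3 and PAR-2 mark opposite ends of the zygote and help to set where MEX-5 and PIE-1 go. Of 12 PUF and Nanos genes, whose products repress messages in the germ line, 4 were bound (33.3%): nos-3 (116), puf-3 (108), puf-11 (81.1) and puf-7 (76.0). All 4 of these summits also lie in the window of another gene. Of 6 other CCCH zinc finger genes, 2 were bound (33.3%), ccch-3 (120) and ccch-1 (93.1, shared with F38B7.15 and F38B7.16), and neither passed in replicate 1.

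The other 3 lists had shares of 6.25% to 13.3% in the series list, and 2 of them had higher counts in the conservative list. Of 15 genes for cytoplasmic polyadenylation and germ cell fate regulators, 2 were bound (13.3%): larp-1, which encodes a La-related protein (signal 565, shared with wip-1), and gld-2, which encodes the catalytic subunit of a cytoplasmic poly(A) polymerase (112). The conservative list added gld-3, giving 3 of 15 (20.0%) beside 8.99% of all genes. Of 15 genes whose messages the member proteins regulate, 2 were bound (13.3%), cye-1 for cyclin E (159, shared with pqn-21) and rme-2 for the yolk receptor (63.8), both of which GLD-1 represses. Of 16 P granule genes, 1 was bound (6.25%), mip-2 (99.2, shared with F58G11.4). The share of all genes was 9.87%, and a count of 1 does not set this list apart from it. In the conservative list 3 were bound (pgl-3, deps-1 and mip-2), 18.8% beside 8.99% of all genes. With the window reaching 2000 bp upstream 3 were also bound, beside 12.9% of all genes. Differences between the lists were not tested.

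**Figure D4:**
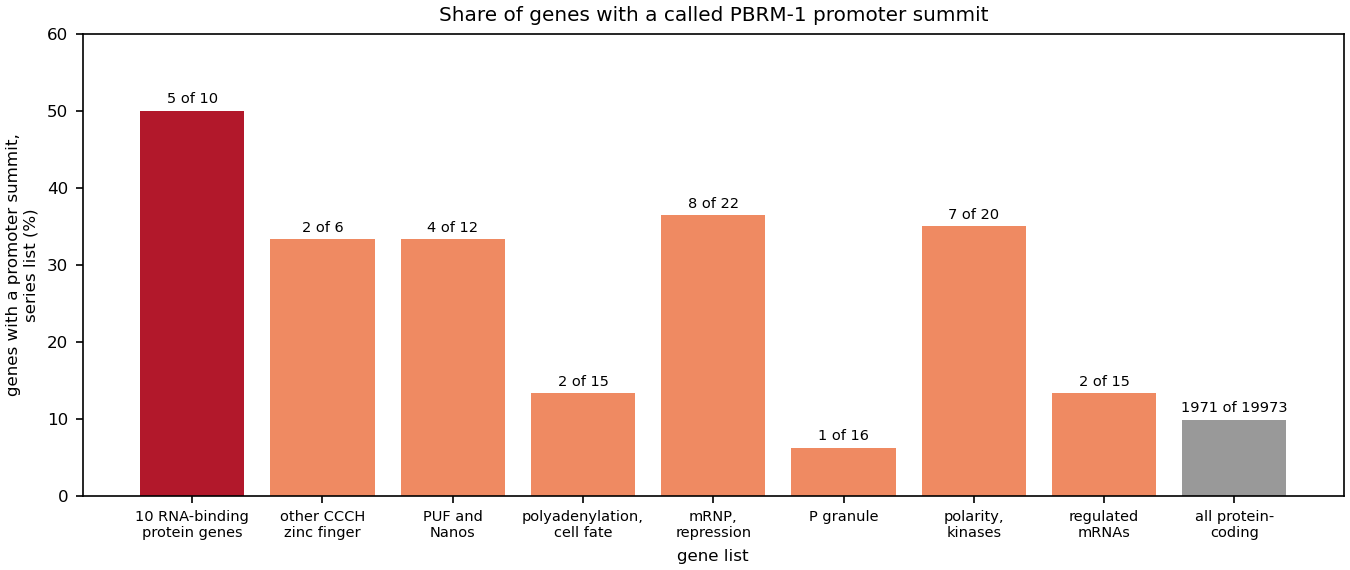
Share of genes with a called PBRM-1 promoter summit in the series list, in percent, with counts above the bars. Red marks the 10 RNA-binding protein genes, orange 7 lists of genes related to them by pathway or protein domain, and grey all protein-coding genes. Of the 10 genes 5 were bound, while the lists lie between 6.25% and 36.4% and all genes at 9.87%.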

How the data were processed

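The 2 replicates were described through 8 peak lists on ce11, deposited without headers: for each replicate and for both together, a candidate list and a thresholded list, with a second candidate list and a conservative list for the series. No label or file read here names the aligner or the peak caller: not given in the sources used here. Per the values, the authors deposited a score (a scaled irreproducible discovery rate, at least 830 in thresholded lists), a signal of unstated scaling and the q-value as −log10. All 3243 series peaks and 2917 conservative peaks occur, with the same score, in 1 candidate list each.

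Summits were placed on Ensembl release 115 (WBcel235, the ce11 assembly) with Python 3.11.15, pandas 2.3.3 and numpy 2.4.6. Sequence came from RefSeq, and proteins were aligned with Biopython 1.88. A summit in the windows of several genes was assigned to each. Placement was tested on simulated peaks. With 1 group, nothing was tested between conditions. Members and gene lists were chosen with earlier results of these data known, and the 3' ends and ACCGTA were examined after seeing the data. Named genes are the 10 members, protein-coding genes sharing their summits, the 3 strongest bound genes of each list, and every gene of a count of 5 or fewer. Alternatives changed the list, threshold, window, peak position and assignment. The median width of the series peaks was 320 bp, and 23.4% of them had a q-value above 0.05.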

Additional observations from a re-analysis of the deposited data

How the results depend on the processing

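The replicates moved the counts most. Using 1 replicate's list alone, 3 to 7 members were bound instead of 5, with 4.63% to 7.63% of all genes instead of 9.87% and 12 to 19 genes of the 7 further lists instead of 26, and 1 to 3 members instead of 6 had a 3' end summit (2.09% to 3.68% of all genes instead of 5.72%). The lower value came from replicate 1 alone in each case. Keeping only peaks at or above the median signal of 92.9 left 3 members (mex-1, pos-1 and gld-1) and 6.01% of all genes. Giving each summit to the nearest gene left 4 members, without spn-4, and 7.69% of all genes. Under the other planned settings (the conservative list, q at most 0.05, other windows, peak midpoint or any overlap) 5 members were bound, beside 7.57% to 12.9% of all genes and 20 to 32 of the further genes. With 50 bp to each side of the summit, the GC median of the members was 45.5% instead of 37.3%. In settings chosen after seeing the data, 3 members had a 3' summit in no promoter window (3.11% of all genes), 4 had one in the conservative list (5.17%) and 4 had one within 250 bp (3.81%). No paired analysis was possible because the 2 replicates form 1 group. Depth is unknown, so an unbound gene is one without a called peak, not one without PBRM-1.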

Other observations

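Within 5000 bp of the 10 genes, the series list held further peaks outside their promoter and 3' windows. The strongest lay 2860 bp past the 3' end of gld-1, with a signal of 188 and rank 437, in the promoter window of T23G11.11. It was called in both replicates, with a signal of 72.4 in replicate 1 and 110 in replicate 2. A peak in a coding exon of rab-7, 1747 bp before mex-1, had a signal of 77.4. A peak 2951 bp past oma-1 had a signal of 85.9 and lay in the window of rad-54.L2. mex-6 and pie-1 had no series peak in that range.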
